A study of Mus musculus with 16 samples.

Results

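The comparison described here is the expression of all genes in 2 libraries labelled Nat10-deficient against 2 wild type (WT) libraries, all taken at 0 h, before transcription was blocked. These 4 of the 16 libraries of the series were chosen by their labels. The 25081 genes tested passed a filter on low counts over all 16 libraries, so a gene may be tested with no count at 0 h. Nat10 is the acetyltransferase that places N4-acetylcytidine (ac4C) on cytidines of ribosomal, transfer and messenger RNA. Per the labels, mouse bone marrow depleted of lineage-positive cells was cultured with thrombopoietin, heparin and stem cell factor, and long-term haematopoietic stem cells (LT-HSCs) were sorted from it. The genotype is given as Nat10 deficiency, with Nat10-/- in the sample titles, or as wild type, and the labels used here give no Cre driver, allele, strain or age. The other 12 libraries hold both genotypes after actinomycin D, an inhibitor of RNA synthesis given at 5 µM, at 1, 3 and 5 h. Equal amounts of ERCC spike-in transcripts, which are synthetic, were added to each sample, and the libraries were made by the Smart-seq2 protocol.

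Long-term stem cells sit at the top of blood formation. They divide rarely, depend on thrombopoietin, and lose the surface proteins and transcription factors of the stem cell state as they become progenitors, which gain Cd48, Flt3 and Cd34 and switch on granule genes of the myeloid lineages. In a bulk library fewer cells of a type and less RNA per cell cannot be told apart.

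Several properties of the 4 libraries bear on every value below. The sample titles name 32D, a myeloid cell line, where the cell type label names LT-HSCs, and the labels leave the choice between these undecided. The labels speak of biological replicates, yet the headers of both files of a pair name the same alignment in 8 of 8 pairs, and the chi-square per degree of freedom between paired files was 1.76 for the Nat10-deficient label and 1.5 for WT, against 119.65 between genotypes. Errors and p-values here rest on that spread between paired files (n = 2 a group), which may be technical. Total counts were 13633973 and 12383302 in WT, and 16865889 and 17274128 under the Nat10-deficient label. ERCC reads took 1.83% and 1.79% of counts in WT and 0.0226% and 0.0221% in the other pair, a ratio of 80.8. Levels are given as CPM (counts scaled to 1e6 gene counts per library), so each direction is relative to the other genes, and scaling on ERCC would add 6.36 to each log2 fold change and leave 2 genes called lower.

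The targeted gene gave no check of the labels. Nat10 mRNA stood at 103 and 103 CPM in the WT files and 109.7 and 113 in the files labelled Nat10-deficient, a log2 fold change of 0.11 ± 0.049 (SE). Counts over the whole gene do not show whether an exon is missing, so the genotype rests on the label, and the libraries are called "labelled Nat10-deficient" for that reason. The 2-fold rule given next called 2.54% of all genes at 10 CPM or more higher and 7.81% lower. Of 22 genes for Nat10, its partners and other rRNA or tRNA modification enzymes, all at that level, it called 0. The largest differences among those at 10 CPM or more were in Nop2, a ribosomal RNA methyltransferase, at 211 CPM in WT and 360.0 in the other pair, and in the tRNA methyltransferase genes Trmt61a, at 28.7 and 41.9 CPM, and Nsun2, at 277 and 192 CPM.

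A gene was called where edgeR's quasi-likelihood test gave a Benjamini-Hochberg adjusted p under 0.05 and the genotypes differed at least 2-fold. By this rule 3913 of the 25081 genes tested (15.6%) were higher under the Nat10-deficient label than in WT, and 4348 (17.3%) were lower. Most of these calls lay at low levels. Below 1 CPM, 2954 of 10648 genes were called higher and 1904 lower, 5251 genes in that range had no count in either WT file, and 2746 had none under the Nat10-deficient label. From 1 to 3 CPM 453 were higher and 1047 lower, and from 3 to 10 CPM 275 higher and 688 lower. More genes had a count under the Nat10-deficient label (29291 and 29219) than in WT (23638 and 23245), beside their deeper counts and smaller ERCC share, and the part of these in the low-level calls was not tested. Among the 9081 genes at 10 CPM or more in the mean of the genotypes, 231 (2.54%) were higher and 709 (7.81%) lower. A gene under 10 CPM in 1 genotype can pass this level through the other. Prg3, Cd48, Gzmb and Dntt did so among the higher genes, and Clec1a and Neo1 among the lower. At this level lower genes outnumbered higher ones in each range from 10 to over 300 CPM, although scaling by trimmed mean of M values (TMM), which raised all log2 values by 0.22, gave 445 higher and 469 lower. At the same level 87.6% of genes had no overlap between the files of the genotypes, so that non-overlap by itself singles out few genes, and the size of the fold orders the genes named here.

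**Figure D1:**
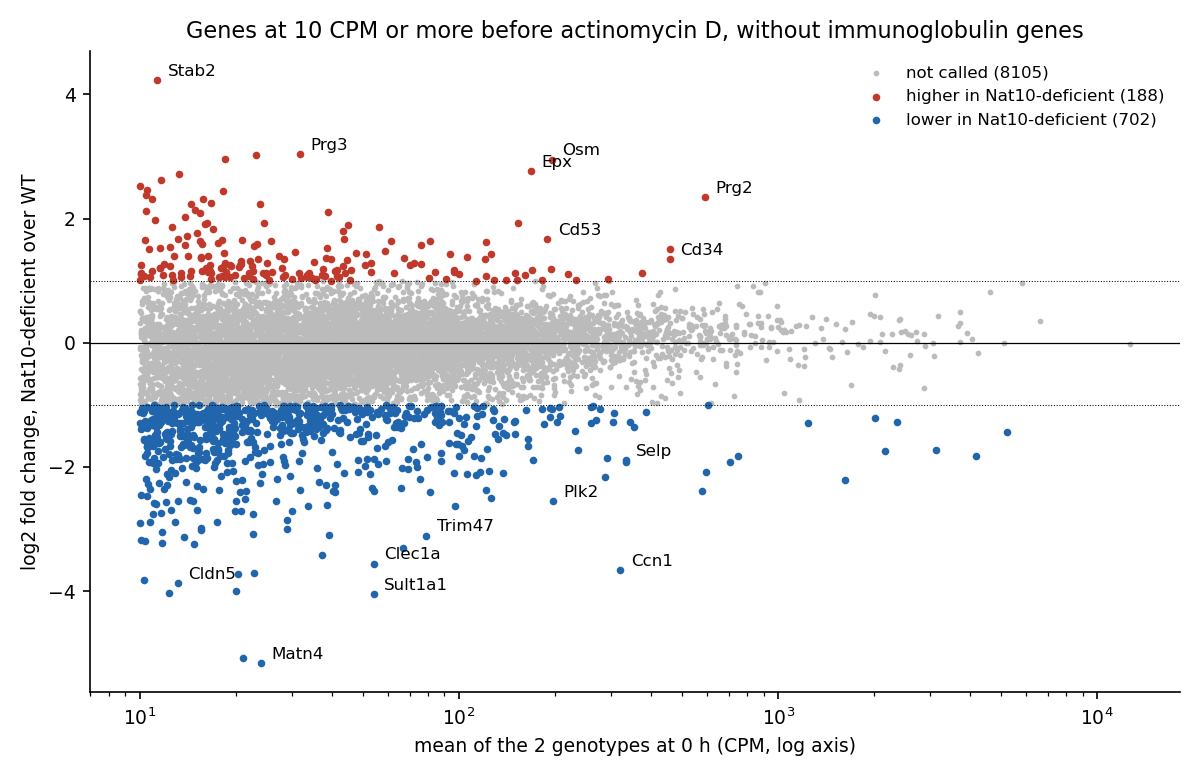
Log2 fold change of the libraries labelled Nat10-deficient over WT at 0 h (vertical axis) against the mean level of the 2 genotypes in CPM (horizontal log axis) for 8995 genes at 10 CPM or more without immunoglobulin genes. Red points mark the 188 genes called higher and blue points the 702 called lower, dotted lines mark 2-fold, and values are relative to gene counts (ERCC scaling would shift all points up by 6.36).

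Immunoglobulin genes took 3.94% and 3.91% of gene counts in WT and 7.0% and 6.96% in the Nat10-deficient pair. Of 86 immunoglobulin genes at 10 CPM or more, 43 were called higher and 7 lower. Without this class 188 genes (2.09%) were higher and 702 (7.8%) lower, and these are the genes followed below. Long noncoding RNAs among them leaned to the lower side, with 3 of 134 called higher and 24 lower and a median log2 fold change of -0.35, beside -0.08 for 8799 protein-coding genes. Neat1, the scaffold RNA of paraspeckles, read 279 and 274 CPM in WT and 132 and 136 under the Nat10-deficient label. The host transcripts of 2 microRNAs, Mir22hg (21.6 against 9.19 CPM) and Mir155hg (132 against 64.5 CPM), were lower as well.

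Counts for each list below stand beside 15.6% higher and 17.3% lower of all genes tested, or 2.54% and 7.81% at 10 CPM or more. Stem cell identity genes had the largest share of lower calls of the 41 lists examined. Of 40 genes, 28 were called lower and 0 higher, and 38 were lower at adjusted p under 0.05 alone, a rule that 32.2% of all genes met in that direction. Their median log2 fold change was -1.45 and lay between -1.56 and -1.23 over the 5 scalings that do not use ERCC (4.91 with ERCC), where the median of all genes tested was 0.00. The summed level of the list was 8839 and 8822 CPM in WT and 4184 and 4160 CPM under the Nat10-deficient label. At 1, 3 and 5 h the list medians were -1.15, 0.20 and -0.28, beside 0.00, 0.04 and 1.38 for all genes tested. The list as a whole was therefore not lower at 3 h. At 1 h 23 of its genes were called lower and 0 higher. All 40 genes had counts in both genotypes at 0 h, a check made per genotype and not per library. The same held for every tested gene of the progenitor, eosinophil and erythroid lists, so it does not single out a cell type. Which cell type the libraries hold was not tested.

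Clec1a, a C-type lectin receptor of endothelium and stem cells (chr6:129401735-129428963 on GRCm39, as in the files), read 99.8 and 100.1 CPM in the WT files and 8.96 and 7.99 in the files labelled Nat10-deficient. Trim47, a RING-finger protein, read 144 and 139 against 16.9 and 16 CPM, and the netrin receptor gene Neo1 25.2 and 24.2 against 3.26 and 2.37. Fgd5, a guanine nucleotide exchange factor used to mark stem cells by a reporter, read 24.4 and 21 CPM in WT and 3.26 and 2.84 in the other pair. In these 4 genes the WT files were several times as high, and the files of the genotypes did not overlap. The endothelial protein C receptor gene Procr, by which stem cells are often sorted, was at 169 and 176 CPM against 39.4 and 40.4. For the SLAM receptor gene Slamf1 (CD150) the values were 106 and 107 against 25.4 and 26.9 CPM. Mecom, Hoxb5 and Hlf, transcription factors of the stem cell state, fell from 155 to 49.2, from 21.9 to 6.07 and from 161 to 53.4 CPM. Procr, Slamf1, Mecom, Hoxb5, Ly6a and Kit are named here after their values were seen.

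Not every gene of the sort phenotype followed. Ly6a, which encodes Sca-1, read 43.7 and 42.1 CPM in WT and 47 and 43.7 CPM under the Nat10-deficient label, a log2 fold change of 0.08 ± 0.065 (adjusted p = 0.305 by edgeR). Kit, the stem cell factor receptor, was lower by less than 2-fold, at 674 and 681 against 461 and 464 CPM. For Ly6a the higher WT file and the lower file labelled Nat10-deficient both read 43.7 CPM, while for Kit the files of the genotypes stood apart.

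**Figure D2:**
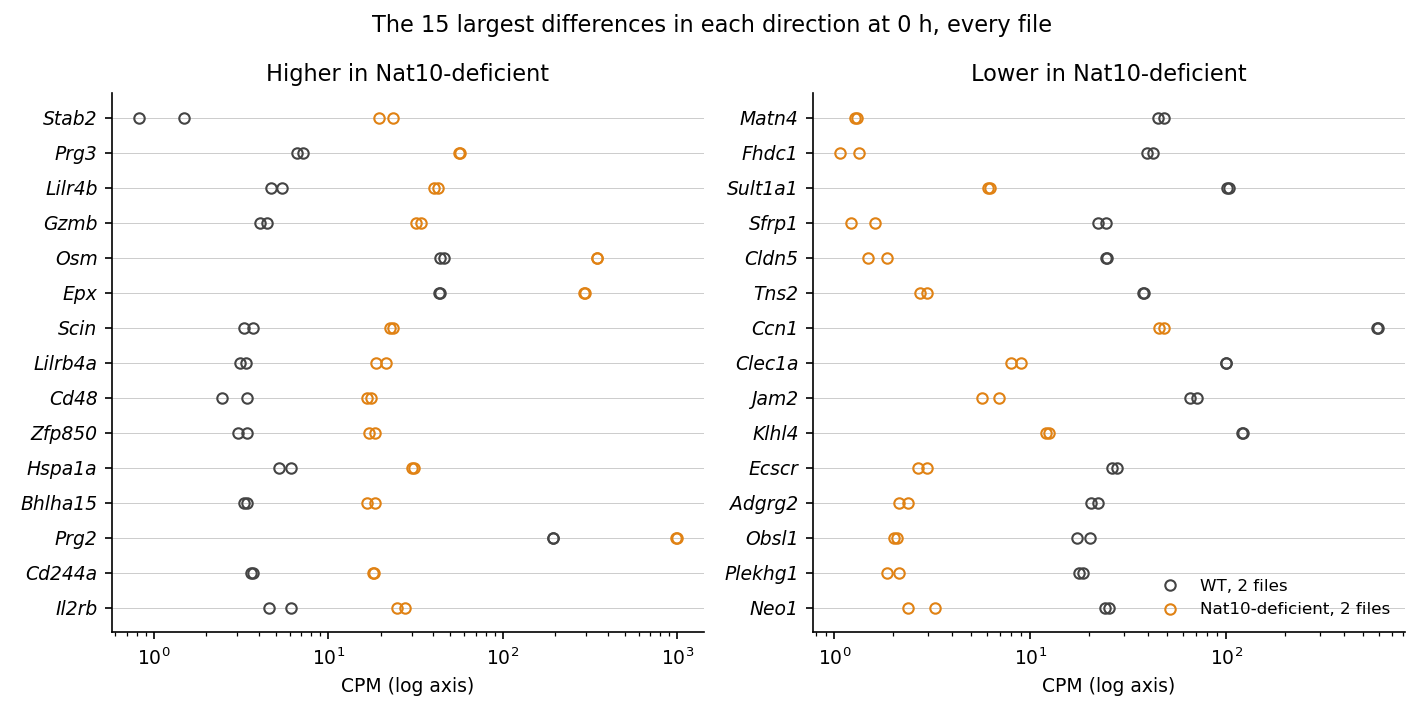
CPM (log axis) in every file for the 15 genes with the largest fold in each direction among well-measured protein-coding genes, WT in grey and the libraries labelled Nat10-deficient in orange, 2 files each. The groups do not overlap in any of the 30 genes, and Stab2 has the widest gap between its WT files, at 0.822 and 1.48, with levels relative to gene counts.

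The megakaryocyte and platelet list held falls of about 4-fold. The adhesion molecule P-selectin (Selp) was at 519.9 and 532 CPM in WT against 142 and 140.3 CPM under the Nat10-deficient label, von Willebrand factor (Vwf) at 198 and 204 against 47 and 49.3, and the caveolar coat gene Cavin2 at 181 and 187 against 42.9 and 40.7. In the list as a whole, which shares Vwf with the stem cell list, 7 of 21 genes were lower and 4 higher. Its median log2 fold change was -0.17 and turned to 0.05 under TMM.

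Among the 15 largest falls, Matn4 (a matrix protein), Sfrp1 (a secreted Wnt antagonist), Cldn5 (a tight junction protein of endothelium), Jam2 (a junctional adhesion molecule) and Ccn1 (a secreted matricellular protein) encode secreted or junctional proteins, a grouping made after their values were seen. Cldn5 read 24.4 and 24.7 CPM in WT and 1.48 and 1.85 under the Nat10-deficient label, a log2 fold change of -3.87 ± 0.2. Sfrp1 was at 22.2 and 24.3 against 1.6 and 1.22 CPM and Jam2 at 70.8 and 65 against 5.69 and 6.95 CPM. Ccn1 was by far the most abundant of the 15, at 595 and 591 CPM in WT and 48.4 and 45.6 in the other pair. Tns2, a tensin of focal adhesions, Ecscr, an endothelial surface protein, and Adgrg2, an adhesion G protein-coupled receptor, had log2 fold changes of -3.73, -3.25 and -3.23. Klhl4, Obsl1 and Plekhg1 completed the 15 at -3.30, -3.19 and -3.18, together with Sult1a1 (-4.06), a phenol sulfotransferase, and Fhdc1 (-5.08), a formin-like protein. In each of them both WT files were above both files labelled Nat10-deficient. The gene just outside the 15 was Trim47 at -3.11, next to Neo1 at -3.13.

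Adhesion genes did not fall as a family. Of 41 integrins and adhesion molecules, 11 were lower and 9 higher, with a median log2 fold change of 0.06. This median turned to -0.04 when libraries were scaled on long-lived mRNAs. With files summed and a line fitted over all 4 times, which the later libraries also enter, it was -0.38. Esam, an endothelial adhesion molecule that is also found on stem cells, was at 139 and 138 CPM in WT and 38.6 and 35.7 in the other genotype, and Alcam (CD166) at 58.7 and 56.9 against 14.1 and 14.3. Stromal, endothelial and macrophage markers summed to 202 and 204 CPM in WT and to 200 and 204 CPM under the Nat10-deficient label, with 9 of 19 genes higher and 4 lower. Col1a2, a collagen chain, read 26.9 against 8.18 CPM and Stab2, treated below, 1.15 against 21.5 CPM, so this list held large differences of both signs.

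Genes of multipotent and myeloid progenitors leaned upward. Of 26 genes, 10 were called higher and 0 lower, and 23 were higher at adjusted p under 0.05 alone (27.2% of all genes). The list's median log2 fold change was 0.84, between 0.73 and 1.06 over the 5 scalings (7.21 with ERCC). Cd34, a sialomucin that rises as mouse stem cells become progenitors, was at 263 and 252 CPM in WT and 657 and 657 under the Nat10-deficient label. Flt3, the receptor of multipotent and lymphoid-primed progenitors, read 16.3 and 16.3 against 43.2 and 46.8 CPM, and Plac8 240.1 and 236 against 675 and 679. The common beta chain of the receptors for interleukin 3, interleukin 5 and GM-CSF (Csf2rb) was at 25.8 and 25.2 CPM against 66 and 73.1. Cd48, a SLAM family ligand absent from the classical stem cell gate, read 3.44 and 2.47 CPM in WT and 16.7 and 17.5 in the other pair, and Cd244a, which encodes its receptor, 3.59 and 3.7 against 18 and 18.2. In all 6 genes the files of the genotypes stood apart. The neutrophil elastase gene Elane differed by less, at 1491 CPM in WT and 2528 under the Nat10-deficient label. Btg2, an antiproliferative gene on none of these lists and among the most abundant in WT, fell from 6458 and 6566 CPM in the WT files to 1845 and 1822.

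**Figure D3:**
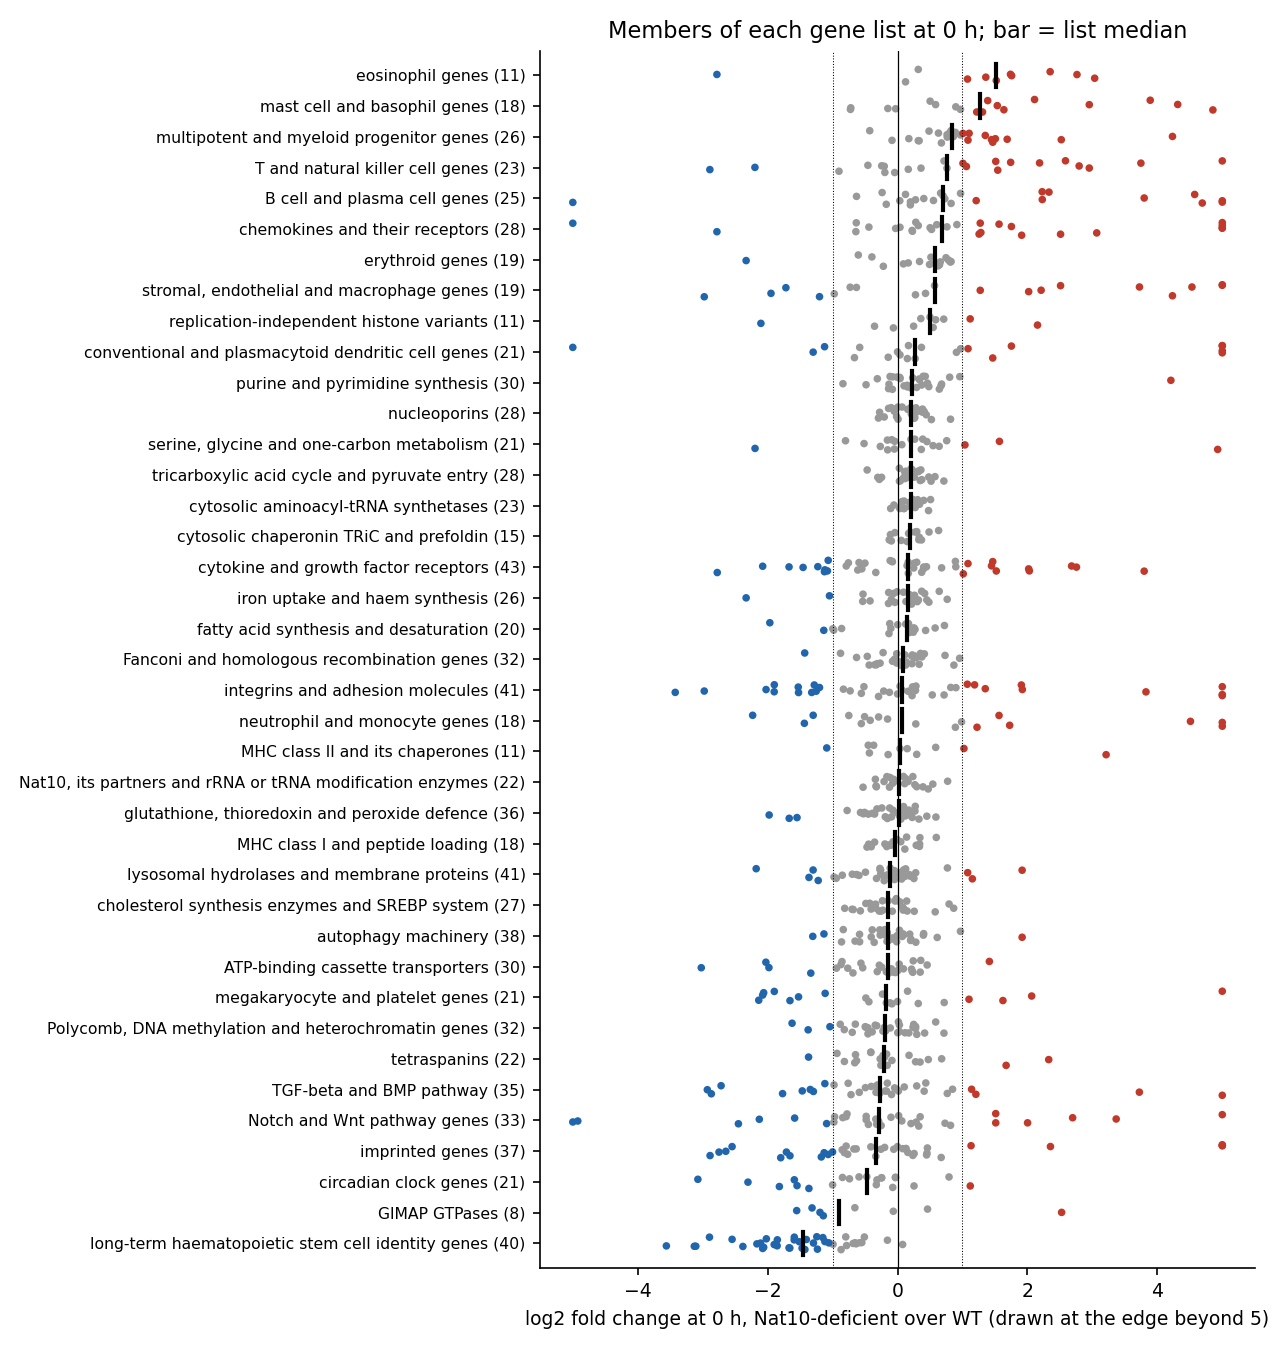
Log2 fold change at 0 h of the tested members of 39 gene lists (points, number tested in brackets), ordered by the list median (black bar). Red and blue mark members beyond 2-fold, dotted lines mark 2-fold, and the stem cell list lies lowest and the eosinophil list highest, relative to gene counts (ERCC scaling would move every list above 0).

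Granule genes of eosinophils included Prg2, the most abundant of the 15 genes with the largest increases. Epx, eosinophil peroxidase (chr11:87754826-87766362), read 43.6 and 42.9 CPM in WT and 294 and 293 under the Nat10-deficient label, a log2 fold change of 2.76 ± 0.041. Prg2, the eosinophil major basic protein (chr2:84810805-84813976), was at 193 and 194 against 993 and 982 CPM, and its neighbour and homologue Prg3 at 6.65 and 7.15 against 56.2 and 56.9 CPM. Siglecf, an eosinophil surface lectin, read 9.86 and 13.5 CPM in WT and 25.7 and 23.3 in the other pair. Of 11 eosinophil genes tested, 8 were higher and 1 lower. At 10 CPM or more in the mean of the genotypes 4 of 4 were higher, beside 2.54% of all genes. Prg3 reached that level only through the files labelled Nat10-deficient. The summed level of the list was 272 and 278 CPM in WT and 1403 and 1391 CPM under the Nat10-deficient label. Values for Ear1 and Ear2, ribonucleases of near-identical sequence, are uncertain because reads may be shared.

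Mast cell and basophil genes were higher too, with 10 of 18 called higher and 0 lower and a median log2 fold change of 1.26. At 10 CPM or more 4 of 12 were higher and 0 lower, with a median of 0.74, beside 2.54% and 7.81% of all genes. The list medians at 1, 3 and 5 h were -0.10, 2.27 and 2.33, and at 1 h 4 genes were called higher and 3 lower. Mcpt8, a basophil protease, read 13.4 and 16 CPM in WT and 66.4 and 59.8 under the Nat10-deficient label. Cpa3, mast cell carboxypeptidase, was at 38.4 and 40.3 against 121 and 123 CPM, and the basophil protease gene Prss34 at 58.2 and 58.7 against 153 and 153. Granzyme B (Gzmb), a cytotoxic protease that is also on the T and natural killer cell list, was at 4.03 and 4.44 against 33.9 and 31.7 CPM. With the files of a group summed, and a line fitted over the times, the median of this list at 0 h was -0.07. Erythroid genes moved less, with 15 of 19 higher at adjusted p under 0.05 (27.2% of all genes) but 0 higher by the 2-fold rule. Their transcription factor Gata1 stood at 83.4 and 140.0 CPM.

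Lymphoid and plasma cell genes, of early as well as mature stages, also differed in the same libraries. The 25 B and plasma cell genes summed to 3878 and 3904 CPM in WT and 6517 and 6524 CPM under the Nat10-deficient label. Of these, 9 were higher and 1 lower, and at 10 CPM or more 2 of 11 were higher and 0 lower. Of all genes at that level 2.54% were higher and 7.81% lower. The list medians at 1, 3 and 5 h were -1.51, -1.01 and -3.54, beside 0.00, 0.04 and 1.38 for all genes tested. At 1 h 3 genes of the list were called higher and 17 lower. The median log2 fold change at 0 h was 0.70, and -0.12 with files summed and a line fitted over all 4 times. The later libraries also enter that -0.12. The joining chain of secreted antibodies (Jchain) alone read 3052 and 3046 against 5392 and 5411 CPM. Dntt, the terminal transferase of early lymphoid progenitors, was at 7.55 and 9.21 CPM in WT and 38.3 and 40.0 in the other pair. At 10 CPM or more 3 of 8 T and natural killer cell genes were higher and 1 lower. Of all 23 tested, 9 were higher and 2 lower. One of the latter was Klrb1c, a natural killer cell receptor, at 29.5 and 31.9 against 4.45 and 3.82 CPM. The part of such cells in the differences of the stem cell and progenitor genes was not tested.

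Osm, oncostatin M (chr11:4186420-4191026), a cytokine of the interleukin 6 family, read 43.8 and 46 CPM in WT and 347 and 347 under the Nat10-deficient label, a log2 fold change of 2.95 ± 0.053. Lif, which encodes a cytokine of that family and is the adjacent gene at this level, was at 18.5 and 20.3 against 66.6 and 67.5 CPM. The gap between Osm and Lif is 16530 bases. Lif is named after its value was seen. Il2rb, a receptor chain for interleukins 2 and 15, read 4.56 and 6.08 CPM in WT and 24.8 and 27.7 in the other pair, next in rank to Chdh at 2.25 just outside the 15. In chemokines and their receptors 12 of 28 listed genes were higher and 2 lower, beside 15.6% and 17.3% of all genes tested. At 10 CPM or more 2 of 9 were higher and 0 lower, beside 2.54% and 7.81% of all genes. The 2 higher ones were Ccl9 (41.6 against 99.3 CPM) and Cxcl12 (12.1 against 29.2 CPM). The chemokine genes Ccl2 (111 against 27 CPM) and Ccl7 (29.7 against 5.71 CPM), which the list does not hold, were lower.

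Stab2, a scavenger receptor of sinusoidal endothelium that binds hyaluronan, had the largest fold upward, from 0.822 and 1.48 CPM in WT to 19.6 and 23.5 CPM under the Nat10-deficient label. Scin, an actin-severing protein, read 3.29 and 3.7 against 23.4 and 22.5 CPM, and the tetraspanin gene Cd53 90.3 and 90.4 against 292 and 283. Bhlha15, a transcription factor of secretory cells, read 3.44 and 3.29 against 18.5 and 16.7 CPM. The leukocyte receptors Lilr4b (5.45 and 4.69 against 40.3 and 42.3 CPM) and Lilrb4a (3.36 and 3.12 against 21.4 and 18.6 CPM) are adjacent copies, Hspa1a (5.23 and 6.08 against 30.4 and 30.9 CPM), an inducible heat shock protein, has a near-identical copy, and Zfp850 (3.44 and 3.04 against 17.2 and 18.4 CPM) belongs to a large zinc finger family, so that these 4 values are less certain. All of these genes were higher in both files labelled Nat10-deficient than in either WT file.

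Cytokine and growth factor receptors differed in both directions. Of 43 genes, 10 (23.3%) were higher and 9 (20.9%) lower, beside 15.6% and 17.3% of all genes tested. At 10 CPM or more 4 of 33 were higher and 8 lower, beside 2.54% and 7.81% of all genes at that level. On the lower side stood the growth hormone receptor gene Ghr (38.8 against 12.2 CPM) and the insulin receptor gene Insr (62 against 22.6 CPM), and on the higher side Flt3 and Csf2rb. In the TGF-beta and BMP pathway 8 of 35 genes (22.9%) were lower and 4 (11.4%) higher. At 10 CPM or more 3 of 23 genes of this pathway were lower and 1 higher. Among the lower ones the coreceptor Tgfbr3 was at 163 and 161 CPM in WT and 66.1 and 61.4 in the other pair.

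H1f0, the linker histone of quiescent and differentiated cells, read 219 and 227 CPM in WT and 51.2 and 52.4 under the Nat10-deficient label, a log2 fold change of -2.10 ± 0.051. The list of replication-independent histone variants that holds H1f0 leaned the other way, with a median of 0.50. Of its 11 genes tested, 2 were called higher and 1 lower. At adjusted p under 0.05 alone 8 were higher and 2 lower, beside 27.2% and 32.2% of all genes. Of 32 Polycomb, DNA methylation and heterochromatin genes 3 were lower and 0 higher, and these were Cbx7 (41.8 against 13.5 CPM) and Cbx6 (110.0 against 53.5 CPM), chromobox proteins of Polycomb complex 1, and Ezh1 (95.2 against 36.7 CPM), a histone H3 lysine 27 methyltransferase. All 3 were among the 29 genes of the list at 10 CPM or more, where 7.81% of all genes were lower.

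Circadian clock genes had a median log2 fold change of -0.47, between -0.58 and -0.25 over the 5 scalings (5.89 with ERCC), with 6 of 21 called lower and 1 higher. Clock itself read 29.1 and 28 CPM in WT and 8.3 and 7.87 in the other pair. The repressor gene Ciart was at 19.4 and 16.9 against 6.4 and 6.02 CPM, while Cry1, another repressor, was higher at 26.2 and 29.4 against 58.9 and 61.4 CPM. Hlf, which belongs to this list and to the stem cell list, is given above.

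Imprinted genes, several of which are expressed in quiescent stem cells, had 11 of 37 members called lower and 5 higher, and at 10 CPM or more 5 of 18 lower and 0 higher. Asb4, a substrate receptor of a ubiquitin ligase, read 21.1 and 19.5 CPM in WT and 2.67 and 3.36 under the Nat10-deficient label. Ndn (necdin), a growth suppressor, was at 36.8 and 31.7 against 5.75 and 5.96 CPM, and the mannose 6-phosphate receptor gene Igf2r at 24.9 and 25.9 against 11.7 and 12.5 CPM. The noncoding Meg3, named after its value was seen and below the 10 CPM mean, read 14.2 against 2.26 CPM.

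The GIMAP genes, a cluster of GTPases of the immune system, were mostly on the lower side, with 4 of 8 called lower and 1 higher. Gimap1 read 194 and 201 CPM in WT and 64.6 and 69.8 in the other pair, Gimap6 262 and 265 against 104.7 and 107, Gimap8 36.2 and 38.2 against 15.7 and 16.8, and Gimap5 101 and 113 against 48.8 and 47.9. The files of each gene stood apart by genotype. The antisense gene Gimap1os lies in the same cluster and its reads cannot be told from those of Gimap1, since counting ignored strand. Other lower genes that were neighbours among those at 10 CPM or more, named after their values were seen, were Hoxa7, Hoxa9 and Hoxa10 at log2 fold changes of -1.25, -1.40 and -2.26, and Plscr1, Plscr2 and Plscr4 at -1.07, -2.41 and -2.14. Of ATP-binding cassette transporters 4 of 30 were lower and 1 higher, beside 17.3% and 15.6% of all genes tested. At 10 CPM or more 3 of 24 were lower and 0 higher, beside 7.81% and 2.54% of all genes. Abcg3 was at 27.5 and 27.9 against 3.97 and 2.84 CPM.

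Several lists of metabolic and housekeeping genes had few or no calls. By the 2-fold rule, 0 genes were called among 23 cytosolic aminoacyl-tRNA synthetases, 28 tricarboxylic acid cycle genes, 28 nucleoporins, 15 chaperonin and prefoldin genes, and 27 cholesterol synthesis genes. At 10 CPM or more, where most of these genes lay, the rule called only 2.54% of all genes higher and 7.81% lower. Calls were made for 3 higher and 1 lower of 21 serine and one-carbon genes, 1 higher of 30 nucleotide synthesis genes, 2 lower of 20 fatty acid synthesis genes, 2 lower of 26 iron and haem genes, and 3 higher and 4 lower of 41 lysosomal genes. At adjusted p under 0.05 alone, 27.2% of all genes tested were higher and 32.2% lower. By that rule 15 synthetases were higher and 1 lower, and 19 tricarboxylic acid cycle genes higher and 3 lower. For nucleoporins 17 were higher and 4 lower, and for chaperonin genes 10 higher and 0 lower. The medians of these 4 lists were near 0.2 (log2). Cholesterol synthesis genes had 3 higher and 13 lower and a median of -0.14 that turned to 0.08 under TMM. The scaling alone moved all genes by up to 0.22, so these small medians depend on it. In the glutathione, thioredoxin and peroxide list 3 of 36 were lower, among them Sesn1, a p53 target that restrains growth signalling, at 247 and 241 CPM in WT and 81.1 and 86 in the other pair.

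**Figure D4:**
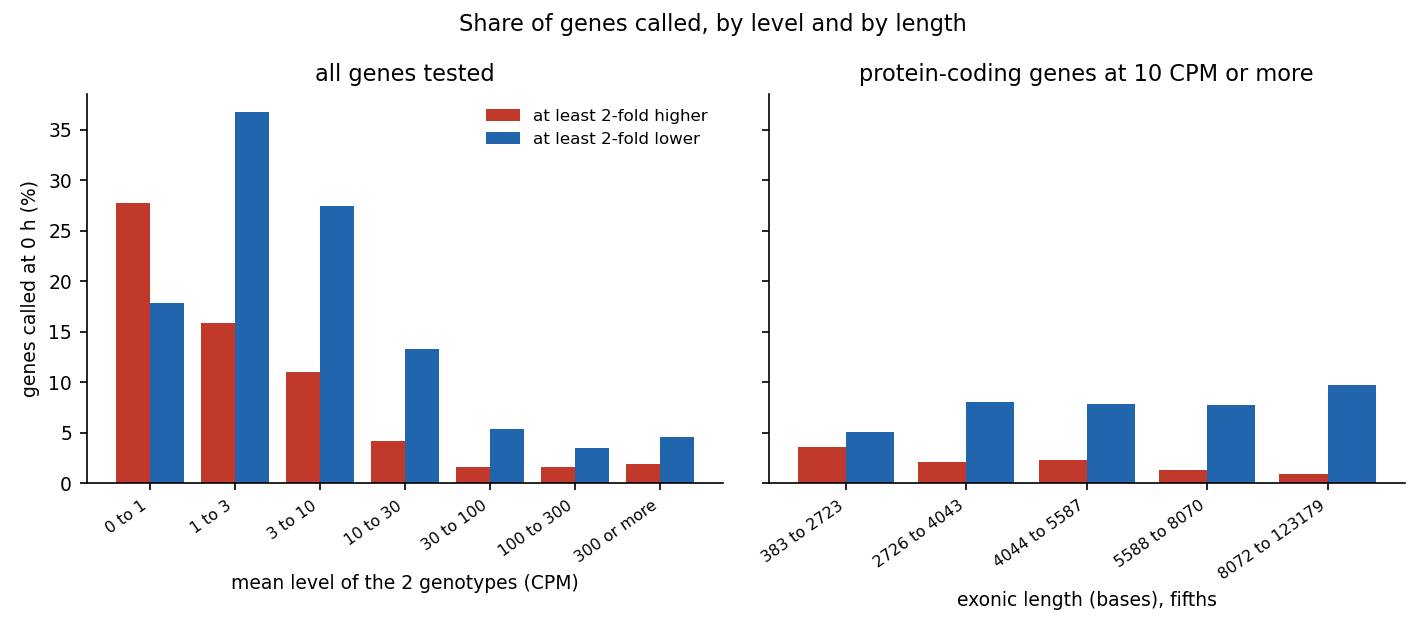
Share of genes called at least 2-fold higher (red) or lower (blue) in the libraries labelled Nat10-deficient, by mean level in CPM over 25081 genes (left) and by exonic length in 5 equal groups over protein-coding genes at 10 CPM or more (right). Calls are most frequent at low levels, and the shortest group holds the largest number of higher calls, relative to gene counts.

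The direction of the differences varied with the length of the gene. Of 8807 protein-coding genes at 10 CPM or more, 182 (2.07%) were called higher and 675 (7.66%) lower. In 5 equal groups by exonic length, from 383 to 2723 bases in the shortest and from 8072 bases upward in the longest, the genes called higher numbered 63, 38, 41, 23 and 17, and those called lower 89, 141, 138, 136 and 171. The median log2 fold change went from 0.07 in the shortest group to -0.21 in the longest. In 1 annotated transcript per gene, genes called lower had a median 3′ UTR of 1336 bases, genes called higher 806.5, and all well-measured protein-coding genes 986. At least 3 ATTTA pentamers, the core of AU-rich elements, were found in the 3′ UTR of 42.5% of genes called lower, 28.3% of those called higher and 34.9% of all. The share of C at the third codon position, where ac4C has been described in coding sequence, had a median of 32.6% in genes called higher, 31.1% in genes called lower and 29.0% in all. The part of level and of library input in these values was not tested.

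Promoters were read for the same genes, which were grouped by their call at 0 h alone. Whether the genes of a set share a control was not tested. RefSeq windows on GRCm38.p6, from 250 bases before to 50 after the start, were found for 138 of 182 protein-coding genes called higher, 518 of 675 called lower and 7097 of 8807 at this level. Across the windows of genes called higher, called lower and all at this level, TGANTCA (the AP-1 site, its own reverse complement) was found in 10.9%, 6.18% and 4.59%. TGTGGTT (the Runx core, either strand) was found in 7.97%, 4.44% and 3.48%. CCGGAAGT (an Ets site) was found in 3.62%, 2.70% and 9.95%, and GGGCGG (the Sp1 box) in 52.2%, 60.2% and 66.9%. The median number of CpG dinucleotides per 100 bases was 5.33, 5.67 and 7.33. In all 27025 windows of the table, TGANTCA was found in 7.93%, TGTGGTT in 5.37%, CCGGAAGT in 4.00% and GGGCGG in 35.9%. The other motifs, searched on both strands, were TATAAA (8.70%, 8.69% and 6.48% in the same order), CCAAT (37.0%, 39.2% and 39.1%), TGACGTCA (1.45%, 2.12% and 3.51%), AGATAA (8.70%, 6.76% and 6.10%), TTTCCCGC (1.45%, 0.772% and 2.42%) and CATATG (2.17%, 1.93% and 1.32%). Their shares in all windows were 14.2%, 37.9%, 1.88%, 11.4%, 1.11% and 3.91%. None of the 10 motifs overlaps another in the sequences printed next.

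The 250 bases before the start of 3 genes called higher and 1 called lower are shown as examples of these matches, 5′ to 3′ on the strand of the gene, with TGANTCA matches and TGTGGTT matches of either strand in capitals. They lie at chr14:56262335-56262584 (minus strand), chr2:84987965-84988214 (plus), chr1:171558943-171559192 (plus) and chr2:155750967-155751216 (plus) of GRCm38.p6.
Gzmb: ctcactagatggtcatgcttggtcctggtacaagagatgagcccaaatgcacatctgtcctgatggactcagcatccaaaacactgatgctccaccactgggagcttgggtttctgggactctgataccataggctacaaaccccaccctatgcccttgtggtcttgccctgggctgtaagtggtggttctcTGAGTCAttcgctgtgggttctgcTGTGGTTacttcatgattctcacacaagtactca
Prg3: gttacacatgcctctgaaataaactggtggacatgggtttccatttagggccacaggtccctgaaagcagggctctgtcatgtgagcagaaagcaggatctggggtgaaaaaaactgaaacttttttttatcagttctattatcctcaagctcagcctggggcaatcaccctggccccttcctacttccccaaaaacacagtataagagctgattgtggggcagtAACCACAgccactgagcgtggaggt
Cd244a: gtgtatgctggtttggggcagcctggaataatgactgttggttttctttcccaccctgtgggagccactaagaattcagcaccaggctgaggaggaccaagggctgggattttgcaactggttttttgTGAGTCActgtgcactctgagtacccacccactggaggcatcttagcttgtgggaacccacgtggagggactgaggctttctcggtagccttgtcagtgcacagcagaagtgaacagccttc
Procr: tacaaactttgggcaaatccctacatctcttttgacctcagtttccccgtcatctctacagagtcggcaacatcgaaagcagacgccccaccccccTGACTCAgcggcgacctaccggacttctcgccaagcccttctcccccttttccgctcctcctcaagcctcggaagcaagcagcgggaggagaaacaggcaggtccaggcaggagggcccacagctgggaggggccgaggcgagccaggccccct
The Gzmb window holds a TGANTCA match and a TGTGGTT match, the Prg3 window a TGTGGTT match on the opposite strand, and the Cd244a window a TGANTCA match. Procr, which was lower, has a TGANTCA match as well, and neither TGANTCA nor TGTGGTT nor AGATAA nor CCGGAAGT was found in the 250 bases before Epx, Cldn5, Trim47 or Fgd5. A match is a run of letters in the reference and was not measured as a site.

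The libraries of the later times, which share no file with 0 h, were used to see which differences recurred. Of the 188 genes higher at 0 h, 77 (41.0%) were called higher at 1 h and 12 lower, beside 11.2% and 5.99% of the 8995 genes. Of the 702 genes lower at 0 h, 268 (38.2%) were lower at 1 h and 23 higher. At 3 h, 86 of the higher genes were called higher and 7 lower, and 96 of the lower genes were called lower and 99 higher, beside 30.8% higher and 3.77% lower of the 8995. At 5 h, 110 of the higher genes (58.5%) were called higher and 24 (12.8%) lower, and 118 of the lower genes (16.8%) were called lower and 277 (39.5%) higher, beside 68.9% higher and 4.85% lower of the 8995. The median log2 fold changes at 5 h were 1.31 for the higher set and 0.50 for the lower set, both under the median of all 8995 genes at 1.63, and 77 of 188 and 181 of 702 genes lay above that median. Immunoglobulin genes took 66.7% and 66.4% of gene counts in WT at that time and 4.34% and 4.31% under the Nat10-deficient label, and their part in these values was not tested. In the same call at all 4 times stood 46 of the 188 higher genes and 11 of the 702 lower genes. Over all 8995 genes, whatever their call at 0 h, 6.53% were called higher and 0.523% lower at each of 1, 3 and 5 h.

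**Figure D5:**
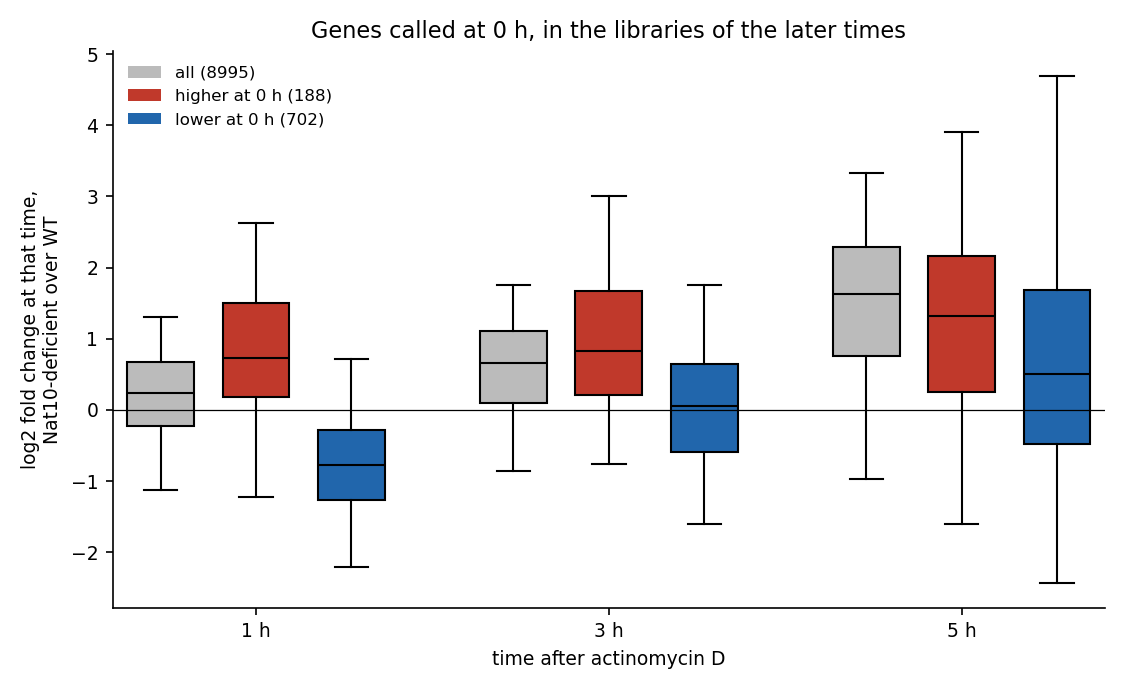
Log2 fold change of the libraries labelled Nat10-deficient over WT at 1, 3 and 5 h after actinomycin D for all 8995 genes (grey), the 188 genes higher at 0 h (red) and the 702 lower at 0 h (blue). Boxes span the quartiles with the median, whiskers leave out 5% of the genes at each end, and the grey medians rise from 0.24 at 1 h to 1.63 at 5 h, relative to gene counts.

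The genes with the 15 largest folds in each direction were followed in the same way, with no test between the sets. Of the 15 falls, 14 were called lower at 1 h, the exception being Plekhg1 (-0.28). At 3 h 5 of the falls were called lower and 0 higher, and at 5 h 5 were lower and 4 higher. Of the 15 rises, 7 were called higher at 1 h and 5 lower, 8 higher and 1 lower at 3 h, and 5 higher and 3 lower at 5 h. Epx had log2 fold changes of 2.96, 2.35 and 2.63 at 1, 3 and 5 h, and Prg2 of 1.98, 1.35 and 1.58. Osm had 1.24, 1.58 and 0.90. Whether the genotype difference itself changed with time was tested by a genotype-by-hours term with the files of a group summed. This called 1011 genes (1006 of them rising with time) with gene-count scaling and 0 under TMM, at an unadjusted p under 0.05 in 1844 genes.

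A smaller set kept the same call at all 4 times under each of the 5 scalings without ERCC. It was formed after the data were seen. At 10 CPM or more and outside the immunoglobulin genes it held 8 genes on each side. On the higher side were Cd34, Scin, Trem1 (a myeloid activating receptor, 5.38 and 4.69 CPM in WT and 23.7 and 24 under the Nat10-deficient label), Mfsd2b (a sphingosine 1-phosphate transporter of red cells and platelets, 106 and 103 against 236 and 234), the mitotic kinase gene Haspin, the nuclease gene Ankle1, and the pseudogenes Gm9800 and Gm11223. The lower side included Clec1a, Abcg3, Mecom, Asb4, Rab6b (a Golgi GTPase, 16.3 and 19.1 against 2.31 and 2.37 CPM), Csgalnact1 and Syt3. Clec1a was at -2.71, -1.30 and -1.83 (log2) at 1, 3 and 5 h, and Mecom at -2.09, -1.27 and -1.65. Cd34 was at 1.71, 2.96 and 4.54.

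When each pair of files was counted as 1 library, with lines fitted over the times, no gene passed adjusted p under 0.05 at 0 h (0 by edgeR, smallest adjusted p = 0.0887, with 1060 genes at an unadjusted p under 0.05). The spread in this fit is the departure of the 8 summed libraries from straight lines over the times, with 4 residual degrees of freedom. It is not a spread between replicates at 0 h, so this result cannot decide whether the differences exceed such a spread. The log2 fold changes of this fit, which uses the same 0 h files, were -3.14 for Clec1a, -3.02 for Jam2, 2.78 for Epx and 2.67 for Osm. Among the 15 largest rises, Lilr4b (-0.48), Lilrb4a (-0.044) and Bhlha15 (-0.23) turned negative in it. Of these 15 rises 6 had an unadjusted p under 0.05 by edgeR, and of the 15 largest falls 14.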

How the data were processed

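The deposited files hold raw counts for each gene. Per the file headers, featureCounts 1.6.3 ran unstranded on an Ensembl 105 annotation. STAR, DESeq2 and GRCm39 are named in the submitters' processing notes. Exonic length in the deposited files, in bases, served only for levels per length and for the grouping by length. Of 55506 entries, 92 ERCC rows were taken out, and the 55414 genes were scaled to gene counts. Gene names came from a reference table, which matched 52133 identifiers. Counts of all 16 libraries were fitted by edgeR 4.0.16 (quasi-likelihood, R 4.3.3) with 1 coefficient per genotype and time, after edgeR's default filter on low counts, and p-values were adjusted over 25081 genes by Benjamini-Hochberg. UTR lengths, codon composition and promoters came from GRCm38 references. Standard errors were taken from the F statistic. The test was tested on simulated data. Alternatives were other scalings (TMM, median ratio, long-lived mRNAs, ERCC, gene counts without immunoglobulin genes), other filters and thresholds, DESeq2 1.42.0, a replicate block, each file left out, and the files of a group summed.

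The members and gene lists were chosen with earlier results of these data known. Named genes were the 15 largest folds in each direction among called protein-coding genes at 10 CPM or more, up to 4 members per list at that level with the largest change, the 5 most abundant genes per genotype, 6 long noncoding RNAs and Nat10. Genes named outside this rule were chosen after their values were seen. A few genes are not reported here.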

Additional observations from a re-analysis of the deposited data

Results flagged for a closer look

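The genes below are among the 30 largest folds at 0 h and were called in the opposite direction at a later time. The difference between the times was not tested for pairs of times. The genotype-by-hours term with files summed called 2 of these 30 genes with gene-count scaling. Among the 15 largest rises at 0 h, the log2 fold change at 1 h was -2.34 for Lilr4b, -1.22 for Lilrb4a, -2.02 for Zfp850, -1.25 for Hspa1a and -1.22 for Bhlha15. Bhlha15 stood at -3.9 at 3 h and -1.11 at 5 h, Hspa1a at -1.61 at 5 h and Il2rb at -2.65 at 5 h. Among the 15 largest falls, the log2 fold change at 5 h was 5.19 for Cldn5, 3.36 for Tns2, 1.29 for Adgrg2 and 2.09 for Plekhg1, at a time when the median of the 8995 well-measured genes was 1.63.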

How the results depend on the processing

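Apart from ERCC scaling and summed files, the 30 genes with the largest folds kept their direction and call under every alternative run, and Nat10, not called by the 2-fold rule, had an adjusted p above 0.05 under several. With ERCC scaling 21901 genes were higher and 2 lower (9080 and 0 at 10 CPM or more, 16116 and 0 with the same call at all times), and the largest falls turned to 1.19 for Matn4, 1.27 for Fhdc1, 2.31 for Sult1a1, 2.32 for Sfrp1, 2.48 for Cldn5, 2.63 for Tns2, 2.71 for Ccn1, 2.80 for Clec1a, 2.94 for Jam2, 3.06 for Klhl4, 3.11 for Ecscr, 3.12 for Adgrg2, 3.17 for Obsl1, 3.17 for Plekhg1 and 3.23 for Neo1. With files summed and lines fitted over the times, 0 genes were called in either direction by edgeR at any level (1060 at an unadjusted p under 0.05). The spread there is the departure from those lines. In that fit, which the later libraries also enter, the 0 h value was -0.48 for Lilr4b, -0.044 for Lilrb4a, -0.23 for Bhlha15 and -0.32 for Nat10. TMM gave 445 higher and 469 lower at 10 CPM or more. The same call at all times held for 164 higher and 134 lower genes, and for 234 lower under TMM, 80 and 303 by median ratio, 47 and 585 on long-lived mRNAs, and 60 and 398 without immunoglobulin genes. A minimum of 10 counts gave 2180 higher genes and a fit of the 4 libraries alone 1867. A log2 threshold of 2 gave 2441 lower, 40 and 116 at 10 CPM or more, and 55 and 30 at all times. Adjusted p alone gave 6828 and 8069, 2822 and 3897, and 2123 and 389. The genotype-by-hours term called 1011 genes, 70 with ERCC and 0 under the other 4 scalings. The cause of these changes was not tested.

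Leaving out each file in turn gave 2869 to 3482 higher and 3860 to 3991 lower genes, 232 to 233 and 715 to 729 at 10 CPM or more. With the replicate block 3765 genes were higher and 4253 lower. Files of the same number did not deviate together (correlations from 0.0058 to 0.0256 at the 4 times), so the numbers only name the files.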
